A study of Mus musculus with 2 samples.

Results

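The cells described here are those in sorted mouse bone marrow progenitors that carried mRNA of class II major histocompatibility complex (MHC) genes. They were chosen by their counts: a cell was a member when H2-Aa, H2-Eb1 and H2-Ab1 together made up at least 10 of every 10000 unique molecular identifiers (UMIs, each standing for 1 captured mRNA molecule), while Ebf1, Cd79a, Vpreb1, Vpreb3 and Igll1, genes of the B lineage, together made up under 10. By this rule 180 of 12318 cells were members. They were 80 of 7190 cells of the control library (1.11%, 95% Clopper-Pearson interval 0.883 to 1.38) and 100 of 5128 cells of the irradiated library (1.95%, 1.59 to 2.37).

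Both libraries came from C57BL/6J mice 6 to 8 weeks old and were sorted by flow cytometry as LSK cells, the marrow cells that lack surface markers of mature lineages and carry Sca1 and c-Kit. Control mice were set beside mice that had received 5.0 Gy to the whole body 15 days earlier. There was 1 library per group, and the number of animals in each is not stated. No test between the groups is therefore possible, and every interval below covers counting error within a library only. PCR copies were collapsed by UMI before deposit.

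Class II MHC molecules are pairs of an alpha and a beta chain that show peptides from engulfed protein to CD4 T cells. The invariant chain Cd74 guides them to the compartment where peptides are loaded, H2-DM exchanges the peptides there, and the coactivator Ciita switches the genes on together. Dendritic cells are the main class II cells that start T cell responses. The subset called type 1 conventional dendritic cells, or cDC1, depends on the transcription factors Irf8 and Batf3, carries the receptors Xcr1 and Clec9a, and is known for passing antigen from dead cells to CD8 T cells.

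Among the members, a count over a list of 17 cDC1 genes (Xcr1, Clec9a, Batf3, Cadm1, Naaa, Tlr3 and others) divided the cells. The label of dendritic-like cells held for most irradiated members and not for most control members. With the list at 10 or more UMIs per 10000, 63 of the 100 irradiated members and 6 of the 80 control members carried the cDC1 genes and are called cDC1-gene members here. The other 37 irradiated and 74 control members are called other members and receive no cell type name. The cDC1 genes were low in them and their other genes were mixed. The stem cell gene Hlf had a UMI in 77.0% of the control ones and in 67.7% of the rest of their library. As a share of all cells, cDC1-gene members were 0.0834% (0.0306 to 0.182) of the control and 1.23% (0.945 to 1.57) of the irradiated library. These intervals cover counting within 1 library each and not the spread between animals, and the control share rests on 6 cells.

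The values that chose the members already differed between the libraries. In the control library 64 of the 80 members had a class II sum from 10 to under 20 per 10000, 10 had 20 to under 50 and 6 had 50 or more. In the irradiated library the same bins held 26, 7 and 67 members. Around the lower limit there was no gap: the 3 control cells just inside stood at 10.1, 10.1 and 10.2 and the 3 just outside at 9.98, 9.82 and 9.81, while the irradiated cells stood at 10.0, 10.1 and 10.2 inside and 9.86, 9.85 and 9.68 outside. The limit on cDC1 genes fell in a wide gap in the control library and a narrow one in the irradiated library, with 15.4 per 10000 in the lowest control cDC1-gene member and 5.62 in the highest of the others, against 10.7 and 8.76 in the irradiated library. B lineage genes kept out 5 control and 3 irradiated cells that had passed the class II limit.

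**Figure D1:**
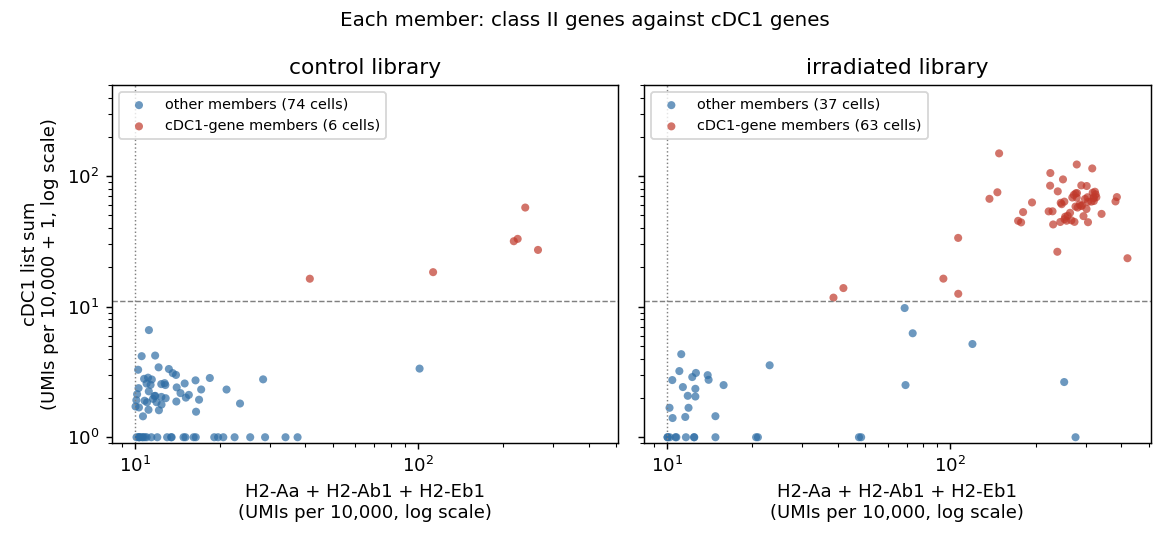
Each point is 1 member, with its class II sum on the horizontal axis (H2-Aa, H2-Ab1 and H2-Eb1, UMIs per 10000, log scale) and its cDC1 list sum plus 1 on the vertical axis (log scale), for the control library (left) and the irradiated library (right). Dotted and dashed lines mark the limits of 10 per 10000, and the dashed line sets the colours. Most of the 63 irradiated cDC1-gene members lie at the upper right. On the class II axis they reach down to 38.7, and irradiated other members reach up to 276. In the control library 64 of 80 members lie under 20 on that axis.

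The class II genes share a promoter layout in which a CCAAT-type element, the Y box, lies close before the start. The letters GATTGG, searched on both strands of the 300 bases around each start (250 before it and 50 after it), were present for all 8 class II family genes in the RefSeq promoter table for GRCm38.p6, H2-Aa, H2-Eb1, H2-Eb2, H2-DMa, H2-DMb1, H2-DMb2, H2-Oa and H2-Ob, and in 16.1% of all 32851 promoters there. A gene counted when any of its promoters held the letters, while the 16.1% is a share of promoters. Of 10 class II family genes searched, H2-Ab1 and Ciita had no entry there. These letters were picked after the sequences had been looked at. The stretches below are shown because 2 belong to genes of the rule and 2 to relatives whose mRNA was far lower in the same cells. Each lies upstream of the gene, outside annotated exons, and is written 5′ to 3′ on the gene's strand with GATTGG in capitals: H2-Aa (chr17:34287847-34287917, minus strand), H2-Eb1 (chr17:34305762-34305832, plus strand), H2-Eb2 (chr17:34325529-34325599, plus strand) and H2-Ob (chr17:34238802-34238872, plus strand).
H2-Aa: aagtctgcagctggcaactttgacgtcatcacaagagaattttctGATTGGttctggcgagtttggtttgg
H2-Eb1: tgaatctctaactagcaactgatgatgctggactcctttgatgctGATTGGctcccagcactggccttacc
H2-Eb2: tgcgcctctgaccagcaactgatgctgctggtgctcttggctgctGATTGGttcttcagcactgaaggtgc
H2-Ob: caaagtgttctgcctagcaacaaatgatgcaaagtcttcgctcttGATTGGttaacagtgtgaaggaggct

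These matches describe the letters only, and the mRNA levels of the 4 genes were far apart. In irradiated cDC1-gene members H2-Aa stood at 7680.3 counts per 1000000 UMIs (CPM), H2-Eb1 at 7183, H2-Ob at 121 and H2-Eb2 at 1.59. Counts per UMI in 3' libraries need no correction for transcript length, although capture can differ between genes. Among 13 cDC1 list genes in the promoter table, the letters were present for 2, Xcr1 and Wdfy4.

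The chains that form the class II molecule were the base of the choice and are given as description only. Over irradiated cDC1-gene members the 3 genes of the rule stood at 7680.3 CPM (7528 to 7835) for H2-Aa, 8497 CPM (8337 to 8659) for H2-Ab1 and 7183 CPM (7036 to 7333) for H2-Eb1, with 95% Poisson intervals. The 6 control cDC1-gene members were at 7577 CPM (6996 to 8194), 6974 CPM (6417 to 7566) and 4259 CPM (3826 to 4727). Other members were an order lower, at 635, 478 and 331 CPM in the control and 1035, 718 and 861 CPM in the irradiated library. The genes lie side by side on mouse chromosome 17 (GRCm38): H2-Ab1 at 34257689 to 34269419, H2-Aa at 34282744 to 34287823 and H2-Eb1 at 34305867 to 34316674.

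Neutrophil granule cells, defined by at least 50 UMIs per 10000 of Elane, Mpo, Prtn3 and Ctsg, should lack class II and give its background. In them H2-Aa stood at 3.62 CPM in the control and 3.77 CPM in the irradiated library, and H2-Eb1 at 2.12 and 2.93 CPM. H2-Ab1 was higher there, at 25.3 and 27.7 CPM. H2-Ab1 thus exceeded H2-Aa several-fold in granule cells, while in irradiated cDC1-gene members the genes were nearly level.

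Genes that the rule did not use and that serve class II loading were also high in cDC1-gene members. Cd74, the invariant chain, stood at 16892 CPM (16666 to 17121) in the irradiated and 14756 CPM (13940.4 to 15607) in the control library, against 15.4 and 53.8 CPM in the rest of each. Every cDC1-gene member of either library had Cd74: per 10000 UMIs the lowest, median and highest cell were 44.2, 193 and 317 in the irradiated and 59.2, 162 and 209 in the control library. In the rest 21.1% of irradiated and 31.3% of control cells had a UMI of it.

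H2-DMb1, a chain of the peptide exchanger, was at 620.4 CPM (578 to 666) and 857 CPM (669 to 1081) in irradiated and control cDC1-gene members, and at 21.2 and 38.1 CPM in the rest. Ciita, the coactivator, was at 201 CPM (177 to 227) and 121 CPM (57.9 to 222), against 0.599 and 2.18 CPM. H2-Oa and H2-Ob, chains of the molecule that restrains H2-DM, were at 168 and 121 CPM in irradiated and 72.4 and 60.3 CPM in control cDC1-gene members. Ciita was seen in 55 of 63 irradiated and 5 of 6 control cDC1-gene members.

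Across the class II list without the rule genes, irradiated cDC1-gene members had 10 genes at least 2-fold higher and 1 lower than the rest of their library, of 11 that reached a mean of 20 CPM, with a median log2 ratio of 4.87. Over all 5101 genes at that level 14.0% were at least 2-fold higher and 18.6% lower, with a median of -0.29. The control cDC1-gene members had 9 higher and 0 lower of 11, with a median of 3.01, where 16.9% of 5094 genes were higher and 19.5% lower. The lower gene was Ctsl, a lysosomal protease, at 11.9 against 30.6 CPM. The costimulatory gene Cd86 (186 against 4.82 CPM) and March1, a ligase that removes class II from the surface (112 against 0.0988 CPM), were among the higher ones. Ciita, Cd86 and March1 reached the mean of 20 CPM through the irradiated cDC1-gene members alone. The counts of higher genes are therefore description only. The control values rest on 82882 UMIs from 6 cells and the irradiated ones on 1258810 UMIs from 63 cells.

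The cDC1 genes that split the members are description too. Xcr1, the receptor for the chemokine that activated CD8 T cells release, was at 516 CPM (477 to 557) in irradiated and 157 CPM (83.5 to 268) in control cDC1-gene members, and was found in 61 of 63 and 3 of 6 cells. Clec9a, which binds actin exposed on dead cells, was at 292 CPM (262 to 323) and 72.4 CPM (26.6 to 158), in 62 and 3 cells. Batf3, the factor the lineage needs, was at 182 CPM (159 to 207) and 229 CPM (138 to 358). The most abundant list genes were Naaa, a lipid amidase, at 1281 and 808 CPM, and Ppt1, a lysosomal thioesterase, at 1055 and 531 CPM. The least abundant was Plet1, for which the irradiated cells held 2 UMIs and the control cells 0.

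The remaining list genes in irradiated cDC1-gene members ran from 40.5 CPM for Snx22 to 399 CPM for the adhesion molecule Cadm1. Tlr3, the receptor for double-stranded RNA, was at 174 CPM, Itgae (CD103) at 95.3 CPM and Tlr11 at 52.4 CPM. Itgae was found in 40 of the 63 cells and Tlr11 in 37. The genes thus differed in how many of the cells showed them, from 63 of 63 for Naaa to 1 of 63 for Plet1.

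To compare libraries of different depth, every cell was thinned to 5000 UMIs. Xcr1 or Clec9a then had a UMI in 61.3% (50.6 to 71.2; 57 of 93 cells) of all irradiated members and in 3.85% (0.80 to 10.8; 3 of 78 cells) of all control members. Without thinning the shares were 66.0% and 6.25%. In granule cells the thinned shares were 0.413% and 1.02%, at untouched median depths of 43249 and 38599.5 UMIs (members 17470.5 and 11191.5). Thinning left out 7 irradiated and 2 control members. Other members were set apart by a low sum of a list that holds both genes. As a description, 8.11% (1.70 to 21.9; 3 of 37 cells) of irradiated and 1.35% (0.0342 to 7.30; 1 of 74 cells) of control other members had a UMI of either without thinning.

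**Figure D2:**
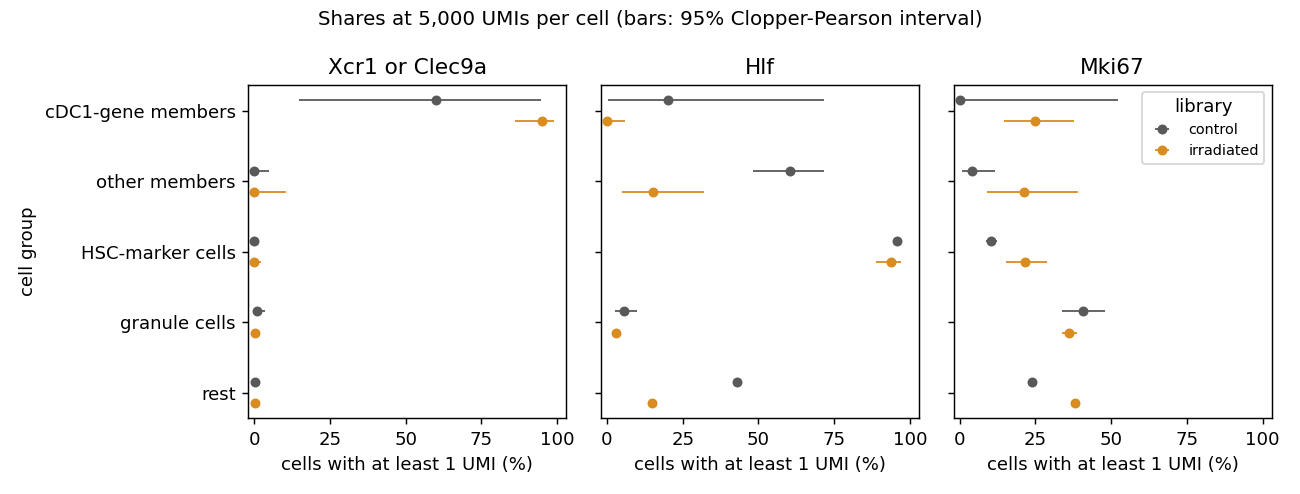
Share of cells (%) with at least 1 UMI of Xcr1 or Clec9a (left), Hlf (middle) and Mki67 (right) after thinning to 5000 UMIs per cell, for 5 cell groups in the control (grey) and irradiated (orange) library, with 95% Clopper-Pearson bars. cDC1-gene members lie far right for Xcr1 or Clec9a (chosen partly by these genes), and control other members lie at 60.3% for Hlf, below the HSC-marker cells (non-members chosen partly by Hlf, called stem-marker cells in the text), and at 4.11% for Mki67.

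Dendritic cell genes outside the cDC1 list were not used to choose or divide the members. Cst3, the secreted protease inhibitor cystatin C, was the most abundant of them, at 22973 CPM (22709 to 23239.6) in irradiated and 20028 CPM (19076 to 21016) in control cDC1-gene members, against 497 and 420.0 CPM in the rest. Irf8, which drives cDC1 development, was at 1717 CPM (1645 to 1791) and 1858 CPM (1576 to 2176), against 99.5 and 99.6 CPM. Irf8 was in every cDC1-gene member, from 3.41 per 10000 in the lowest to 31.5 in the highest irradiated cell. Both genes were within 2-fold of each other between the 6 control and the 63 irradiated cells.

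Id2, an inhibitor of other helix-loop-helix factors that conventional dendritic cells need, was at 933 CPM (881 to 988) and 1448 CPM (1200.4 to 1731), against 10.5 and 13.8 CPM in the rest. Zbtb46, a factor used to mark conventional dendritic cells, was at 54.0 and 36.2 CPM, against 0.50 and 0.219. Plbd1, a phospholipase B-like protein, was at 989 and 1086 CPM, against under 1 CPM in the rest (0.364 and 0.401). Of the shared and precursor dendritic list, which shares Batf3 with the cDC1 list, 12 of 13 measured genes were at least 2-fold higher in irradiated cDC1-gene members. The other, Zeb2, was lower, at 14.3 against 129 CPM. Over all measured genes 14.0% were higher and 18.6% lower. Genes such as Zbtb46 and Plbd1 were measured only because they were high in the members, so this count is description.

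The highest ratios of irradiated cDC1-gene members over the rest outside the lists above were those of Pianp (114 against 0.0247 CPM; log2 ratio 12.17, 10.78 to 14.06), the anti-apoptotic Bcl2a1a (133 against 0.0432 CPM; log2 ratio 11.59, 10.52 to 12.93), the secreted nuclease Dnase1l3 (379 against 0.136 CPM; log2 ratio 11.45, 10.83 to 12.13), Shtn1 (189.9 against 0.148 CPM) and Pid1 (137 against 0.117 CPM). Bcl2a1a has near-identical neighbours, so its count may be split among them. At the other end stood Dntt, an enzyme of early lymphoid cells, at 7.15 against 165 CPM, Car1 and Car2, carbonic anhydrases of erythroid cells, at 10.3 against 173 and 27.8 against 255 CPM, Egfl7 at 12.7 against 155 CPM and Sox4 at 26.2 against 259 CPM. Igkc, Cd69 and Zeb2 completed the 8 lowest. The rest of the 12 highest were cDC1 list genes and Plbd1.

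**Figure D3:**
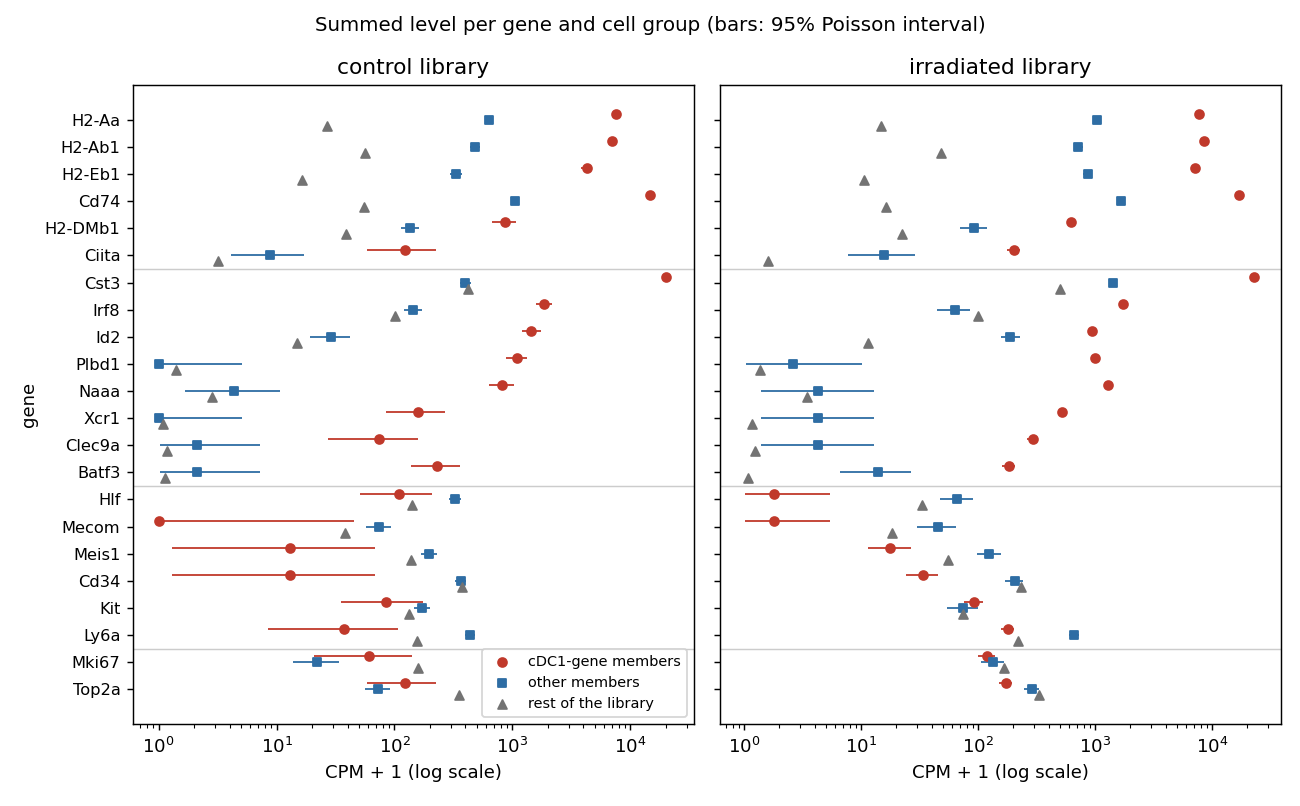
Summed level of 22 genes (CPM plus 1, log scale) in cDC1-gene members (red circles), other members (blue squares) and the rest of each library (grey triangles), control on the left and irradiated on the right, with 95% Poisson bars on the members. Red points lie to the right for class II and dendritic genes in both libraries, and blue points lie to the right of grey for Hlf, Mecom and Ly6a.

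Among chemokine receptors apart from Xcr1, Cxcr3 was at 86.6 CPM in irradiated cDC1-gene members and 0.259 CPM in the rest. Ccr2, which guides monocytes and precursors out of marrow, was at 45.3 CPM in irradiated and 446 CPM (314 to 615) in control cDC1-gene members, the reverse order of Xcr1 and Cadm1 (399 against 24.1 CPM). 5 of the 6 control and 22 of the 63 irradiated cells had a UMI of Ccr2. With 6 control cells these values rest on few UMIs, 37 for Ccr2 and 2 for Cadm1.

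For growth factor receptors, Flt3, whose ligand sustains dendritic cells, was at 126 CPM (107 to 147) in irradiated cDC1-gene members against 45.8 CPM in the rest, and at 72.4 CPM (26.6 to 158) in the control cells against 127 CPM. Csf2ra, a chain of the GM-CSF receptor, was at 147 against 25 CPM in the irradiated library. Ifngr1 was at 296 against 98.8 CPM. In the irradiated library 6 of 9 measured growth factor receptor genes were at least 2-fold higher and 0 lower, and in the control library 2 of 9 higher and 0 lower. Of the innate sensors, which share Tlr3 and Tlr11 with the cDC1 list, 5 of 6 and 4 of 5 were higher. Over all measured genes 14.0% were higher and 18.6% lower in the irradiated library, and 16.9% and 19.5% in the control library. The control 2 of 9 thus lay near the share of all genes.

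Class I presentation, which nearly all cells have, differed less. B2m was at 2035 CPM in irradiated cDC1-gene members and 1477 CPM in the rest, and Tap1, which pumps peptides to class I molecules, was at 294 against 102 CPM. Of the class I list 7 of 18 genes were at least 2-fold higher in the irradiated library (median log2 ratio 0.70) and 8 of 17 in the control library (median 0.80). Over all measured genes the shares were 14.0% and 16.9%. Wdfy4, needed by cDC1 to pass antigen to class I and also on the cDC1 list, was at 390.1 against 26.5 CPM in the irradiated library.

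Markers of other dendritic types differed from gene to gene in cDC1-gene members, and their summed levels are given below with the other lists. Cd209a and Clec4a4, markers of type 2 conventional dendritic cells, had 0 UMIs in all 180 members, and Sirpa was at 3.18 CPM in irradiated cDC1-gene members against 14.1 CPM in the rest. Not all genes of the type 2 list were low, as its summed level, given below, exceeded that of the rest in both libraries. Siglech, the defining receptor of plasmacytoid dendritic cells, had 1 UMI in the 63 irradiated and 0 in the 6 control cells. Cd8a, which marks resident cDC1 of lymphoid tissue and also killer T cells, was at 76.3 CPM in 35 of 63 irradiated cells, against 0.0371 CPM in the rest. Itgam (CD11b), a common lineage antigen, had 2 UMIs in the 63 irradiated cells.

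The sort selected on the proteins of Kit and Ly6a. Kit was at 90.6 CPM (74.7 to 109) in irradiated cDC1-gene members against 73.4 CPM in the rest, and at 84.5 CPM (34.0 to 174) in the control cells against 132 CPM. Ly6a, which encodes Sca1, was at 178 CPM (155 to 203) against 216 CPM in the irradiated and 36.2 CPM (7.46 to 106) against 154 CPM in the control library. Without thinning 45 of 63 irradiated and 4 of 6 control cells had a UMI of Kit, and 48 of 63 and 2 of 6 a UMI of Ly6a. After thinning, the irradiated shares were 36.7% (24.6 to 50.1; 22 of 60 cells) for Kit and 41.7% (29.1 to 55.1; 25 of 60 cells) for Ly6a, against 24.5% and 45.7% in granule cells and 31.2% and 57.7% in the rest. The Ly6a share was thus no higher than in granule cells. Cd34, a progenitor surface gene that was not part of the gate, was lower, at 32.6 CPM (23.4 to 44.2) against 232 CPM. Ptprc (CD45) and Cd52 were higher, at 429.8 against 92 and 3432 against 219 CPM.

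Genes of the HSC list differed among themselves in irradiated cDC1-gene members. Hlf had 1 UMI and Mecom 1 in the 63 cells, and Meis1 was at 16.7 against 53.9 CPM in the rest. Procr stood out from its list at 13.5 CPM (7.87 to 21.6) in 14 cells, against 5.33 CPM in the rest. In the control library 1 cDC1-gene member carried all 9 UMIs of Hlf seen in the 6 cells.

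Division genes were seen in part of the irradiated cDC1-gene members. After thinning, Mki67, a proliferation marker, had a UMI in 25% (14.7 to 37.9; 15 of 60 cells) of them and in 38.0% (36.6 to 39.3; 1890 of 4976 cells) of the rest, with 21.5% in stem-marker cells (non-members with at least 5 UMIs per 10000 of Hlf, Mecom and Procr). Of the G2/M list 0 of 20 genes were at least 2-fold higher and 0 lower, with a median log2 ratio of -0.38. All 19 measured S phase genes were at least 2-fold lower, with a median of -1.68, among them Mcm5 at 53.2 against 141 CPM. Over all measured genes 14.0% were higher and 18.6% lower. The 15 thinned cells with Mki67 had a median class II sum of 259 per 10000 and the 45 without it one of 279, with overlapping ranges. Itgae stood at 32.2 CPM in the former, from 12 UMIs, and 119.7 CPM in the latter. Both sets hold cells above 45000 UMIs, up to 70429 and 67497, and 13 of the 15 cells with Mki67 lay at or below that depth. The part of the deep cells in the Itgae values was not tested.

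Immediate early genes were higher in irradiated cDC1-gene members than in the rest of their library, 13 of 18 measured by at least 2-fold with a median log2 ratio of 1.83. Fos was at 1891 against 502 CPM. Of the interferon response list 8 of 21 genes were higher and 5 lower, with Ifitm3 at 496 against 1038 CPM. The shares over all measured genes were 14.0% higher and 18.6% lower.

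A few cells carried signals of other cell types and weighed on the sums. The 4 irradiated cDC1-gene members with more than 45000 UMIs (49343 to 70429) had high Scrublet doublet scores, with Elane at 2420.2 CPM and Prtn3 at 4649.8 CPM. Over all 63 cells Elane was at 477 and Prtn3 at 956 CPM, and over the other 59 cells at 16.7 and 79.6 CPM. Without these 4 cells Mki67 was at 99.3 CPM (118 with them), H2-Aa at 8926, Xcr1 at 583, Irf8 at 1957 and Cd34 at 11.8 CPM. Haemoglobin came mostly from 1 cell, which held 95.8% of the Hbb-bs UMIs, and without the 5 cells at 10 or more haemoglobin UMIs per 10000 Hbb-bs was at 5.13 CPM in place of 1085. The migration receptor gene Ccr7, at 39.7 CPM, was found in 1 cell.

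Summed marker lists of other cell types gave the following levels in irradiated and control cDC1-gene members, each against the rest of its library. Monocyte markers summed to 793 and 2292 CPM against 979 and 720.2 CPM, macrophage markers to 105 and 48.3 CPM against 24.8 and 24.8 CPM, and T and NK cell markers to 182 and 12.1 CPM against 317 and 204 CPM. Mast cell and basophil markers summed to 25.4 and 0 CPM against 127 and 124 CPM, and megakaryocyte markers to 155 and 229 CPM against 99.8 and 136 CPM. Endothelial and stromal markers summed to 11.1 and 36.2 CPM against 41.5 and 59.7 CPM. B lineage markers, part of which the rule capped, summed to 145 and 229 CPM against 172 and 405 CPM, and plasma cell markers to 65.1 and 84.5 CPM against 154 and 184 CPM. Monocyte genes in the 6 control cells had the highest of these sums.

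Erythroid markers summed to 3021 and 0 CPM against 395 and 95 CPM, and the haemoglobin cell described above is part of the first value. Mature neutrophil markers summed to 193 and 24.1 CPM against 102 and 353 CPM. Innate lymphoid markers, which include Id2, summed to 939 and 1459.9 CPM against 30.7 and 53.9 CPM. Markers of type 2 conventional dendritic cells summed to 249 and 314 CPM against 182 and 164 CPM, with 2 of 3 measured genes at least 2-fold higher in the control cells and 1 of 2 in the irradiated cells, and those of plasmacytoid dendritic cells to 589 and 555 CPM against 626 and 745 CPM. Of the p53 target list 2 of 7 genes were higher and 2 lower in irradiated cDC1-gene members, and of chemokines and cytokines 3 of 8 higher and 2 lower. Among all measured genes 14.0% were higher and 18.6% lower in the irradiated cells, and 16.9% were higher in the control cells.

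Set side by side, the 6 control and 63 irradiated cDC1-gene members differed by at least 2-fold in 63 genes upward (5.28% of the 1194 genes at a mean of 100 CPM or more) and 70 downward in the irradiated cells (5.86%). Of the class II list 2 of 7 were higher in the irradiated cells and 0 lower, with a median log2 ratio of 0.23, and of the shared dendritic genes 0 of 8 in either direction, with a median of -0.23. All 6 measured neutrophil-primed genes were higher over the 63 cells. Without the 4 deep cells Elane and Prtn3 stood at 16.7 and 79.6 CPM, against 0 and 24.1 CPM in the control cells. Monocyte genes were lower, 4 of 6 by at least 2-fold with a median of -2.39. They were Ccr2, Lyz2 (265 against 845 CPM), Ms4a6c (53.2 against 458 CPM) and S100a4 (4.77 against 314 CPM), while Csf1r, the monocyte growth factor receptor, was seen with 1 UMI among irradiated cells and 0 among control cells.

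The 74 other members of the control library had low levels of the conventional dendritic cell genes described above, and 4 of them carried plasmacytoid dendritic genes, as given below. Their Cst3, at 397 CPM (357 to 440.2), was no higher than in the rest of the library (420.0 CPM). They had 0 UMIs of Xcr1 and Plbd1 and 1 each of Clec9a and Batf3. In 52 of the 74 the 10 HSC (haematopoietic stem cell) genes together reached 5 UMIs per 10000. This count was not made in the rest of the library, where such genes were common too. Without thinning, Mecom or Procr had a UMI in 47.4% of the rest and 62.2% of the 74 cells.

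Hlf, a transcription factor that marks stem cells, was at 323 CPM (287 to 363) against 141 CPM in the rest of the control library (log2 ratio 1.20, 1.02 to 1.36). Mecom was at 72.4 CPM (55.9 to 92.3) against 37.0 CPM and Procr at 39 CPM (27.2 to 54.2) against 14.6 CPM. Of the HSC list 3 of 7 measured genes were at least 2-fold higher and 0 lower, with a median log2 ratio of 0.97, where 1.42% of 5407 genes were higher and 2.07% lower. After thinning, Hlf had a UMI in 60.3% (48.1 to 71.5; 44 of 73 cells) of other members, 43.0% of the rest and 5.58% of granule cells. Without thinning the shares were 77.0%, 67.7% and 25.3%.

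Cd74 led the named genes of these 74 cells at 1043 CPM (977 to 1112) against 53.8 CPM in the rest (log2 ratio 4.28, 4.18 to 4.38), and every cell had at least 1 UMI of it. H2-DMb1 was at 135 CPM (112 to 161) against 38.1 CPM. Ciita had 7 UMIs in all 74 cells. By ratio the cytokine gene Ltb (349 against 80.6 CPM) stood between Cd74 and H2-DMb1. Below H2-DMb1 stood Ly6a (434 against 154 CPM), the homeobox gene Nkx2-3 (116 against 42.9), Neurl3 (103 against 41.2) and Shisa5 (281 against 115). After these came the early response gene Nr4a1 (327 against 152), the Notch target Hes1 (116 against 54.6), Txnip (249.6 against 118) and Tsc22d1 (500.4 against 244).

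Genes of division and of granules were lower in these cells. All 17 measured G2/M genes were at least 2-fold lower than in the rest of the library, with a median log2 ratio of -2.90. Of all 5407 measured genes, 2.07% were that much lower. Mki67 was at 21.2 CPM (12.7 to 33.1) against 158 CPM, and after thinning had a UMI in 4.11% (0.856 to 11.5; 3 of 73 cells) against 23.9% of the rest. The granule protease genes Ctsg and Mpo were at 16.7 and 43.5 CPM against 302 and 389 CPM, and S100a8 and S100a9 at 7.80 each against 143 and 135 CPM. Ube2c, Birc5 and Hist1h1b, all tied to division, and Iglc1, an immunoglobulin gene of plasma cells, completed the 8 lowest.

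Other members were next set against the stem-marker cells of their own library, 1157 control and 161 irradiated cells of similar depth (medians 11355 and 13525 UMIs). Those cells held class II above the rest: H2-Aa was at 53.5 and 53.7 CPM against 25.7 and 13.8 CPM, and Cd74 at 109 and 79.1 against 53.8 and 15.4 CPM. Granule cells had 3.99 and 4.56 CPM of Cd74 and B lineage cells 155 and 118 CPM. Low class II levels were thus seen outside the members too, and those stem-marker cells stayed under 10 per 10000 because members were left out of them.

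Against those stem-marker cells, control other members had few genes at least 2-fold higher (33 of 5548, 0.595%) or lower (46, 0.829%). The HSC list had 0 higher and 0 lower of 7, although its median log2 ratio was -0.81, and 3 of its genes chose the comparison cells. G2/M genes were again lower, 11 of 11, with a median of -1.94. Lymphoid-primed genes had 3 higher of 7, Dntt among them at 291 against 66.5 CPM. Irf8 at 143 against 9.42 CPM was the highest ratio, and 87 of its 128 UMIs came from 4 cells.

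Those 4 control cells were picked by a UMI of Siglech and at least 20 UMIs per 10000 over the plasmacytoid (pDC) list. Siglech at 986 CPM, Cox6a2 at 1194 CPM and Ccr9 at 303 CPM belong to that list and are description only. Irf8, outside the list, was at 1649.5 CPM. The 4 cells held all 52 Siglech UMIs of the 74 cells. Their list sums ran from 27.5 per 10000, in a cell with 1 Siglech UMI, to 227. The 4 cells had 0 UMIs of Hlf, Kit, Mecom and Procr, and Dntt at 1459.9 CPM. No irradiated other member had a UMI of Siglech. Of the pDC list 5 of 9 genes were at least 2-fold higher in the 74 cells than in the rest, where 1.42% of all measured genes were. These 4 cells supplied 63 of 100 UMIs of Cox6a2.

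The 37 other members of the irradiated library were more mixed. Against the rest of their library 5.59% of 5279 genes were at least 2-fold higher and 2.16% lower. Of the HSC list 3 of 5 measured genes were higher and 0 lower, with a median log2 ratio of 1.03: Hlf was at 65.1 CPM (46.5 to 88.7) against 31.8 CPM and Mecom at 43.9 CPM (29.0 to 63.9) against 17.5 CPM. After thinning, Hlf had a UMI in 15.2% (5.11 to 31.9; 5 of 33 cells) of them and 14.7% of the rest. Over the HSC list 10 of the 37 reached 5 per 10000, a count not made in the rest. Against irradiated stem-marker cells, 2.72% of 5544 genes were higher and 3.01% lower, and 4 of 7 HSC genes were lower. Hlf, Mecom and Procr, which are on the HSC list, chose those stem-marker cells, so the HSC count is description only. The highest ratios over the rest were those of Cd74, Ccl5, Id2 and Ltb, and the lowest included the granule genes Elane (32.6 against 745 CPM), Ms4a3, Mpo, Ctsg and Prtn3.

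Single cells set several of their values. Il12b, a cytokine of activated dendritic cells, was at 125 CPM (98.9 to 157) and Ccr7, the receptor that draws such cells to lymph nodes, at 120.4 CPM (94.6 to 151). In the 4 cells with at least 50 UMIs per 10000 of activated dendritic genes, Il12b was at 1922, Ccr7 at 1722, Fscn1 at 374 and Ccl5 at 1223 CPM. All of these genes are on the list that picked the cells, so the levels are description only. The cells also differed: 1 held 68 UMIs of Il12b, and the others 7, 2 and 0. The cell without Il12b had 0 UMIs of Ccr7 too and was small, with 1892 UMIs in all. Those 4 cells held Cst3 at 15453 and Cd74 at 9561 CPM, with Kit, Ly6a and Hlf at 0 UMIs. In the 31 other members with a class II sum under 50, Il12b had 0 UMIs and Ccr7 was at 1.89 CPM.

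A further 3 irradiated and 1 control other member with a class II sum of at least 50 had Il7r, which codes for the interleukin-7 receptor of lymphoid cells. In the irradiated library Il7r was at 308 CPM over the 6 cells of that class II level and at 0 UMIs in the 31 below it. The control library differed: 7 of its 74 other members had a UMI of Il7r, and only 1 of these reached a class II sum of 50. 1 irradiated cell of 1239 UMIs had 266 UMIs per 10000 of macrophage genes, C1qa among them, and 1 held all 59 UMIs of the T cell receptor gene Trbc1. These cells were singled out after their values were seen.

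In other members T and NK cell markers summed to 531 and 107 CPM in the irradiated and control library, macrophage markers to 74.9 and 25.6 CPM, erythroid markers to 539 and 72.4 CPM and B lineage markers to 89.5 and 262 CPM. The first 2 of these sums in the irradiated library include the Trbc1 cell and the macrophage-gene cell. Their part in the gene ratios was not tested.

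The 31 irradiated other members with a class II sum under 50, which still include the macrophage-gene cell, the Trbc1 cell and 1 of the 4 activated cells, had Hlf at 69.8, Mecom at 43.4, Ly6a at 479 and Kit at 81.1 CPM, Cst3 at 485 CPM and Xcr1, Clec9a and Batf3 at 0 UMIs. Apoe was at 758 CPM in them, against 245 CPM in the rest of the library and 251 CPM in stem-marker cells. Cd74 was at 504 CPM, against 1007 CPM in the 73 control cells of the same class II range.

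Between the libraries, other members had 313 genes at least 2-fold higher after irradiation (5.70% of 5493) and 251 lower (4.57%). Among all remaining cells of the libraries 1.05% of 5244 genes were higher and 2.38% lower. Division genes differed as a group: all 18 measured G2/M genes were higher, with a median log2 ratio of 2.73 against 0.39 in the remaining cells. Ube2c was at 226 against 12.3 CPM and Mki67 at 132 against 21.2 CPM. After thinning, Mki67 had a UMI in 21.2% (8.98 to 38.9; 7 of 33 cells) of irradiated and 4.11% of control other members, with Clopper-Pearson intervals that overlap.

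HSC and lymphoid-primed genes were lower in irradiated other members, 4 of 7 with a median log2 ratio of -1.39 and 5 of 8 with a median of -1.58. In the remaining cells of the libraries the medians were -1.21 and -1.26. The lowest ratios included Ccl3, a chemokine, at 17.9 against 376 CPM, Hlf at 65.1 against 323 CPM and Nkx2-3 at 27.7 against 116 CPM. Of the interferon list 8 of 22 were higher and 0 lower. For irradiated against control other members, 5.70% of all 5493 measured genes were higher and 4.57% lower. Ccl5 (194 against 13.4 CPM), Ctsg (252 against 16.7 CPM) and Apoe (760.1 against 100.3 CPM) were among the 10 highest ratios.

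**Figure D4:**
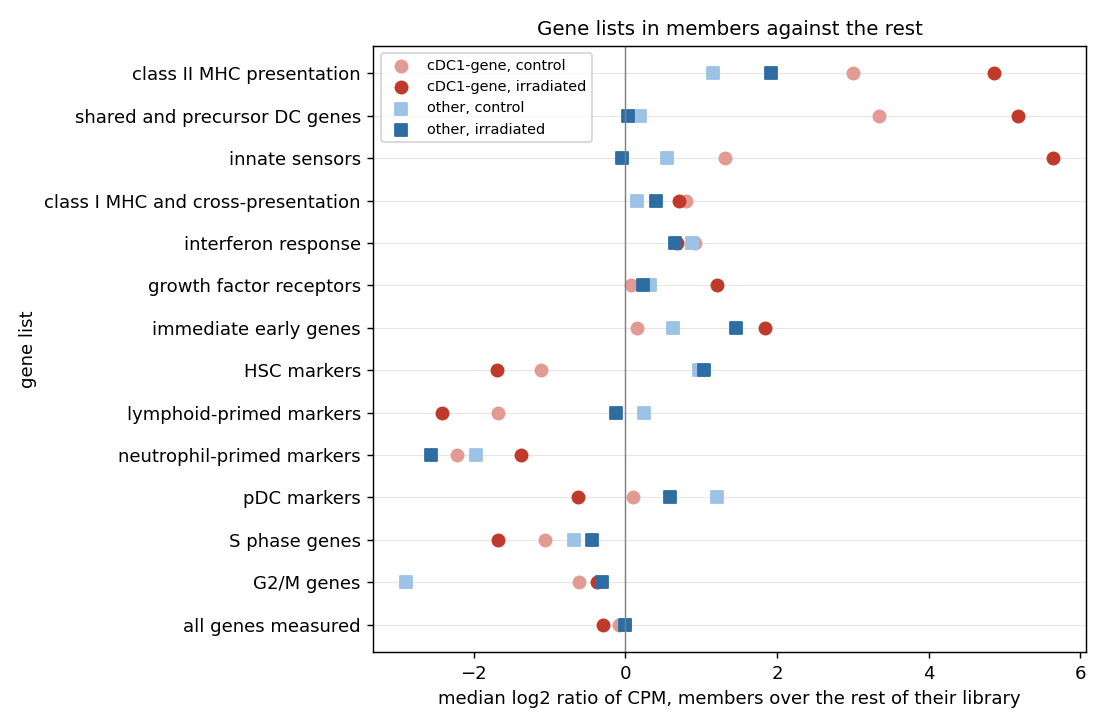
Median log2 ratio of CPM, members over the rest of their own library, for 13 gene lists and for all genes measured, in cDC1-gene members (circles) and other members (squares) of the control (pale) and irradiated (dark) library. HSC markers lie right of 0 for other members and left of 0 for cDC1-gene members in both libraries, and G2/M genes lie farthest left in control other members.

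Taking all members together mixes these groups. In the control library 90 genes were at least 2-fold higher in members than in the rest (1.67% of 5395) and 120 lower (2.22%), and in the irradiated library 561 were higher (10.8% of 5191) and 427 lower (8.23%). Irradiated members exceeded control members by at least 2-fold in 484 genes (9.04% of 5354) and fell short in 489 (9.13%). The highest ratios among these belonged to Dnase1l3, Elane, Bcl2a1a and Cadm1, and the lowest to Ccl3, Hlf and Nkx2-3. This contrast sets 63 cDC1-gene members of 100 against 6 of 80, so a difference in the mix of cells and a difference within like cells cannot be told apart in it.

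Depth and quality differed between the groups. Median UMIs were 17857 in irradiated and 12030.5 in control cDC1-gene members, 14689 and 11191.5 in other members, and 30026 and 16171 in the rest. The median mitochondrial share was 2.61% and 2.60% in cDC1-gene members and 3.32% and 4.88% in other members. Among the 6% of cells with the highest doublet scores in each library were 12 irradiated members, 9 of them cDC1-gene members, and no control member. Members of the libraries shared no cell barcode, whereas 11 barcodes occurred among the kept cells of both. The part of depth and doublets in the differences was not tested beyond the values given with and without those cells.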

How the data were processed

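Single-cell 3' RNA libraries (10x) were made from sorted marrow cells, 1 per group. The authors deposited raw UMI counts per gene and cell, made with Cell Ranger 2.1.1 on mm10 per the submitters' processing notes, while per the file headers the software version was 3.1.0. The deposited counts covered 31053 genes, 7686 control and 5596 irradiated barcodes, and 139274656 and 165119247 UMIs. Barcodes with at least 1000 UMIs, at least 500 genes and at most 10% mitochondrial UMIs were kept. The filters removed 496 and 468 barcodes, of which 18 and 12 met the class II rule.

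Counts were summed over the cells of a group and divided by the group's UMIs (CPM). A gene was compared when its average over the 2 groups reached 20 CPM (100 CPM between cDC1-gene members), and called when it differed by at least 2-fold. A gene near 0 in 1 group could reach that average through the other alone and was then called by that choice. Counts of list genes called are therefore description. The 95% intervals are exact Poisson or Clopper-Pearson, and the limit for a count of 0 is 3 counts. As each library is 1 sample, no p-value was computed. The members and the 31 gene lists were chosen with earlier results of these data known. Lists overlap, and 3 of their genes were not matched in the files. Named genes were the 12 highest and 8 lowest ratios of members, or of either member group, over the comparison cells at 100 CPM or more in the higher, and the 10 highest and 10 lowest between libraries at a mean of 50 CPM, with a UMI in 25% of the higher members, leaving out rule, mitochondrial, ribosomal and predicted genes. Any list gene could also be named. The subsets of other members by class II, activated or plasmacytoid genes, and the cells above 45000 UMIs, were set after seeing the data.

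Doublets were kept, as the rule does not remove them. Scrublet (scanpy 1.11.5, expected rate 6%) called 2 control and 16 irradiated cells, so its calls were not used and its score was used only to leave out the highest 6% of cells as an alternative. Promoters came from the RefSeq table for GRCm38.p6, and exons and gene positions from the GRCm38 annotation. The summing and ratios were tested on simulated data. Python 3.11.15, numpy 2.4.6, scipy 1.17.1, pandas 2.3.3 and matplotlib 3.10.9 were used.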

Additional observations from a re-analysis of the deposited data

How the results depend on the processing

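The class II limit decided most values over all members. At 5 UMIs per 10000 the member share was 4.52% in the control and 4.17% in the irradiated library, the reverse of the order at 10. Genes at least 2-fold higher in members than in the rest then numbered 33 and 232, those higher and lower in irradiated than in control members 250 and 220, and Xcr1 or Clec9a had a UMI in 28.1% of irradiated members. At 20 the shares were 0.223% and 1.44%, 610 genes were higher in control members, and Xcr1 or Clec9a stood at 21.4% and 85.1%. At 50, an alternative added after seeing the data, the shares were 0.0834% and 1.31%, 912 genes were higher in control members, and Xcr1 or Clec9a stood at 75% and 88.9%. With at most 5% mitochondrial UMIs the control share was 0.805%. With a minimum of 50 CPM, 27 control and 254 irradiated genes were higher than in the rest, and 206 higher and 165 lower between libraries. With no CPM minimum these counts were 1666, 2424, 1189 and 2123. The median log2 ratio of the HSC list in control members against the rest was 0.84, and -2.54 at a class II limit of 50.

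The cDC1-gene shares ranged from 0.0556% to 0.107% and from 1.13% to 1.27% over 10 alternatives each, among them cDC1 limits of 5 and 20 and the members without those above 45000 UMIs, added after seeing the data. No paired analysis was possible because each group has 1 library, which also means that none could be left out. Only 6 cells stand behind the values of control cDC1-gene members.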
